A study of Mus musculus with 12 samples.

Results

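Glucocorticoid-induced genes are transcripts that many cell types raise when the glucocorticoid receptor is activated. Their levels were followed through 4 weeks of dexamethasone (DEX) and after its withdrawal in sorted mouse pituitary cells. The 10 genes Fkbp5, Zbtb16, Tsc22d3, Klf9, Sgk1, Dusp1, Errfi1, Ddit4, Mt1 and Mt2 were taken by symbol from 55304 genes listed, as textbook members of this class. The rule used symbols only, but the choice was made with earlier results of these data known. All 10 passed the filter on low values, as did 24736 genes in all. Only Fkbp5 differed among the 4 groups by the limma F test, in which 0.315% of all genes tested were called.

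The glucocorticoid receptor is a hormone-activated transcription factor that enters the nucleus once bound and acts at glucocorticoid response elements near its targets. In corticotrophs, the pituitary cells that make ACTH from its precursor Pomc, it carries the negative feedback of adrenal steroids. DEX is a synthetic steroid that activates this receptor.

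RNA-seq was performed on cells sorted by FACS from dissociated anterior pituitaries of male Pomc-eGFP mice, transgenic animals on a C57Bl6/J background in which Pomc regulatory sequence drives a green reporter. Mice were 8 weeks old at the start. Each library was made from a pool of pituitaries, 3 per pool by the sample records, with 3 pools in each of 4 groups. Control mice drank standard water, DEX mice received 2.5 microg/ml DEX in drinking water for 4 weeks, and the recovery groups received the same 4 weeks of DEX followed by 1 week or 4 weeks of standard water. All groups carried the reporter transgene, and cells were gated on its fluorescence against wild-type pituitaries, which makes Pomc promoter activity part of the selection.

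Library depth was 7719894 to 12848078 reads on genes. Values are edgeR's CPM on an effective library size, called normalised counts here, in which 1 read was worth 0.0787 to 0.127. The least covered of the genes, Ddit4, had 36 to 134 reads per library and the most abundant, Mt1, 10616 to 55122. RNA was below the limit of fluorometric detection before amplification. Pomc made up 3.80% to 8.25% of reads in control, 0.454% to 0.997% in DEX, 4.33% to 19.997% at 1 week and 4.56% to 6.92% at 4 weeks. The somatotroph hormone Gh took 8.20% to 22.9% and the lactotroph hormone Prl 3.498% to 10.3% of reads across the libraries, so RNA of other pituitary lineages was present in every sorted pool. Pool 2 of the 1 week group had the highest Pomc share and the lowest scaling factor (0.702, against 0.863 to 1.21 elsewhere). Values without it are given for several results, not for all.

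Before treatment effects are considered, the genes differed widely in level per kilobase of exon in control cells. Exon length was the union of exons of all annotated transcripts, which can exceed the length of 1 mRNA. The order below depends on these lengths. Mt1 (3478 ± 52.7 normalised counts per kb, SD, n = 3) and Mt2 (1447 ± 267) stood highest. Errfi1 (298 ± 172) and Dusp1 (280 ± 37.8) followed and overlapped each other. Klf9 (24.7 ± 11.2) and Tsc22d3 (22.4 ± 3.44) formed the next level, and Klf9 also overlapped Sgk1 (13.6 ± 3.93). Sgk1 overlapped Fkbp5 (9.63 ± 1.39), and at the foot Ddit4 (4.37 ± 1.05) overlapped Zbtb16 (3.65 ± 0.595). In all other neighbouring pairs of that order the 3 pools did not overlap.

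Fkbp5, the Hsp90 co-chaperone that lowers the hormone affinity of the glucocorticoid receptor, had the largest difference of the 10 genes. Its normalised counts were 80.8, 86.8 and 106 in the control pools and 545, 230 and 354 in the DEX pools. They were 72.1, 19.5 and 68.3 after 1 week of recovery and 100, 133 and 130 after 4 weeks. Every DEX pool lay above every other pool of the study, every 1 week pool lay below every control pool, and the 4 week pools overlapped the controls. The F test over the 4 groups gave an adjusted p of 0.0229 by limma.

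Against control, mean Fkbp5 was 4.13-fold higher under DEX (fitted log2 fold change 1.97 ± 0.42, SE; 95% interval 1.07 to 2.86), with an adjusted p of 0.0971 by limma. That contrast passed with edgeR's likelihood ratio test (adjusted p = 6.91e-06), DESeq2 (0.00114) and limma array weights (0.00625), and missed with edgeR's quasi-likelihood test (0.0527). Limma also called it without pool 2 (adjusted p = 0.00802) or pool 3 (0.0461) of the 1 week group. In the 1 week group Fkbp5 was 7.07-fold lower than in DEX (log2 fold change −2.95 ± 0.42, adjusted p = 0.00581 by limma). After 4 weeks it was 3.11-fold lower than in DEX (−1.56 ± 0.42, adjusted p = 0.105 by limma). That 4 week contrast passed in 4 of 25 alternatives. They were edgeR's likelihood ratio test (adjusted p = 0.000514), DESeq2 (0.00981), limma array weights (0.00858) and limma without pool 2 of the 1 week group (0.0129). The 4 week group differed from control by 0.41 ± 0.42 on the log2 scale, and from the 1 week group by 1.39 ± 0.42 (adjusted p = 0.701 by limma), with no overlap between the 2 recovery groups.

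The call over the 4 groups was lost when some single pools were left out. Its adjusted p by limma was 0.208 without pool 1 of DEX, 0.172 without pool 3 of DEX, 0.0503 without pool 2 of control, and 0.0585 and 0.0550 without pool 2 or pool 3 of the 4 week group. Over all genes the F test called 12 and 7 without DEX pool 1 or 3, beside 78 with all pools. The fall of Fkbp5 from DEX to 1 week missed the threshold in 2 alternatives. Its adjusted p by limma was 0.276 when only those 6 libraries were fitted and 0.0537 without pool 3 of DEX. The log2 fold change was −2.95 in both. Without pool 2 of the 1 week group, the lowest in Fkbp5, the log2 fold change of 1 week was −2.33 against DEX. Against control it was −0.37, beside −0.98 with all pools, and that of 4 weeks over 1 week was 0.77. In bulk RNA, fewer cells of a type and less RNA per cell cannot be told apart, here and for every gene below.

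The annotated Fkbp5 promoter is printed because it belongs to the member with the largest response. It spans 250 bases before to 50 after the RefSeq start site on GRCm38.p6, minus strand, chr17:28486100-28486399. Capitals mark CCAAT boxes (CCAAT on either strand, in 37.4% of 32851 annotated promoter windows) and GC boxes (GGGCGG on either strand, in 35.7%), 6 matches in all, with one of each side by side. Neither the palindromic glucocorticoid response element, made of AGAACA and its reverse complement TGTTCT with any 3 bases between them, nor a single arm AGAACA, searched on both strands, occurred in this window.
Fkbp5: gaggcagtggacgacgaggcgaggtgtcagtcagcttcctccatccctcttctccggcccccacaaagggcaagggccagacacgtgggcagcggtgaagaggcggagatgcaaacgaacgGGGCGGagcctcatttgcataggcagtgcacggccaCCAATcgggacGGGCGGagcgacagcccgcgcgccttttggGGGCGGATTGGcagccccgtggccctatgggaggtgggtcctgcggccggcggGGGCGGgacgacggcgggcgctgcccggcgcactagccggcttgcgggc

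Zbtb16, which encodes the zinc finger transcriptional repressor PLZF, was 22.1, 15.9 and 19.9 normalised counts in control and 48.1, 22.6 and 41.7 in DEX. The 1 week pools held 11.03, 9.69 and 13.1, and the 4 week pools 17.7, 10.4 and 9.65. All DEX pools exceeded all pools of the other 3 groups, although DEX pool 2 was only just above the highest control pool. The 1 week pools all lay below control, and the 4 week pools overlapped both control and 1 week.

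Mean Zbtb16 was 1.94-fold higher in DEX than in control (log2 fold change 0.89 ± 0.33, adjusted p = 0.554 by limma), which did not pass. It was 3.32-fold lower at 1 week than in DEX (−1.66 ± 0.33, adjusted p = 0.0372) and 2.97-fold lower at 4 weeks than in DEX (−1.55 ± 0.33, adjusted p = 0.0401), and both of these limma contrasts passed. The F test missed (adjusted p = 0.0836 by limma) and passed in 5 of 24 alternatives, among them edgeR's quasi-likelihood test (0.0303), DESeq2 (0.000134) and the fit with the pool number as a replicate block (0.0464). For the 1 week contrast, limma's adjusted p was 0.236 without DEX pool 1, 0.194 without DEX pool 3, 0.0859 and 0.0606 without pool 2 or 1 of the 1 week group, 0.0550 without control pool 2, and 0.0602 and 0.0522 without pool 2 or 3 of the 4 week group. For the 4 week contrast it was 0.208 and 0.181 without DEX pool 1 or 3, 0.0522, 0.193 and 0.189 without 4 week pool 1, 2 or 3, and 0.0573 without control pool 2.

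**Figure D1:**
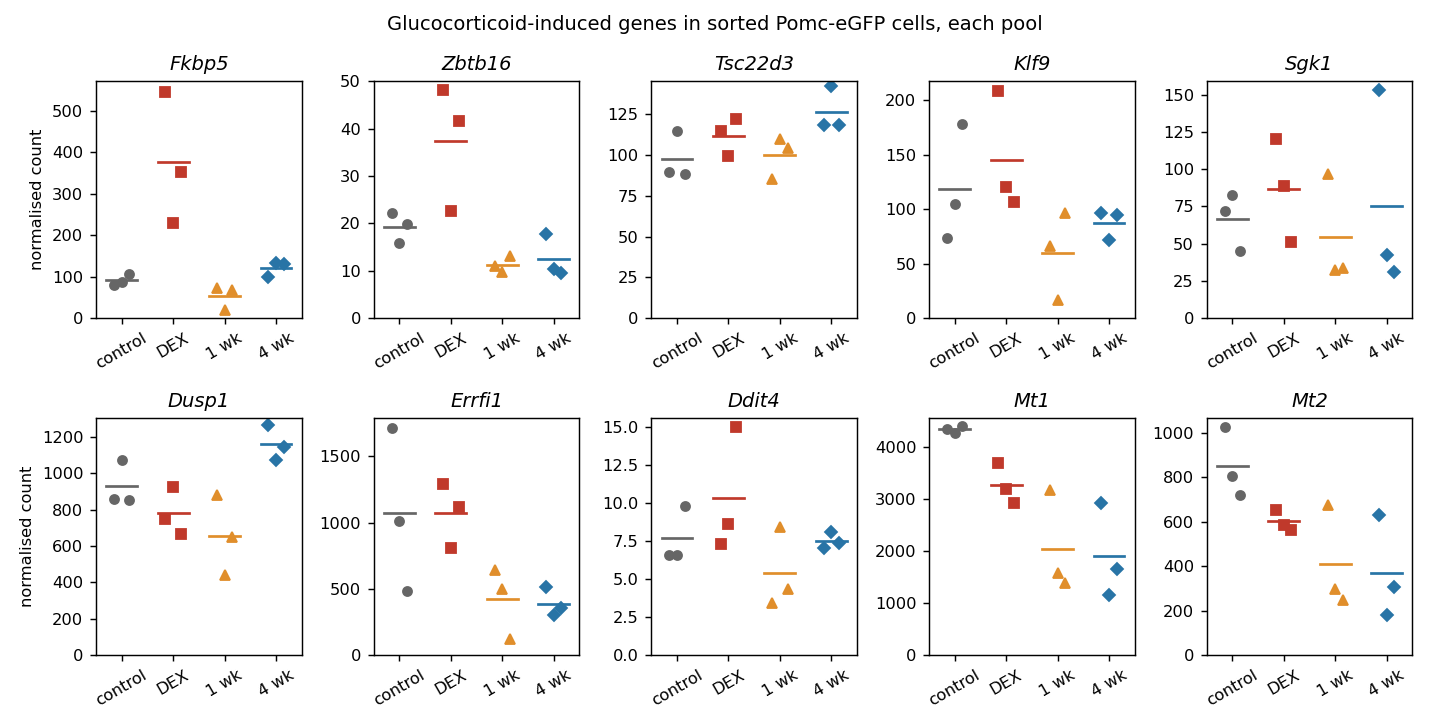
Normalised counts of the 10 genes in each pool. Each panel is 1 gene on its own linear axis from 0, symbols are the 3 pools of control, DEX, 1 week recovery and 4 weeks recovery, and bars are group means. The DEX pools of Fkbp5 (230 to 545) and Zbtb16 (22.6 to 48.1) sit above all others, whereas Mt1 and Mt2 are highest in control.

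Among the 10 genes, 0 passed in DEX against control (background 0.121% of genes called by limma). At an unadjusted limma p under 0.05 there were 2, beside 1682 of all 24736 genes tested. In this contrast edgeR's quasi-likelihood test also called 0, whereas the likelihood ratio test and DESeq2 each called 1, Fkbp5. In 1 week against DEX, 2 passed, both lower (background 0.433%, of which 0.327% lower), and in 4 weeks against DEX 1 passed, lower (0.873%, of which 0.461% lower). Against control, 0 passed at 1 week and 0 at 4 weeks (background 0.0% in both by limma). At an unadjusted limma p under 0.05 there were 6 and 3, beside 938 and 1570 of all 24736 genes. Between the recovery groups 0 of the 10 passed (background 0.0%), and 2 had an unadjusted limma p under 0.05, beside 1352 of all 24736 genes. In these 3 contrasts both edgeR tests and DESeq2 called 0 of the 10 genes too. Fkbp5 and Zbtb16 stand in a gene list that the study drew from these same libraries, so their calls are not independent of it.

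By group means, 6 of the 10 genes were highest in DEX and 6 were lowest at 1 week. The median log2 fold change of the 10 was 0.26 in DEX against control, −0.87 in 1 week against DEX and −0.77 in 4 weeks against DEX, beside medians of −0.02, 0.03 and 0.00 over all genes tested. Against control the medians were −0.88 at 1 week and −0.25 at 4 weeks. The DEX and control pools enter several of these comparisons, which are therefore not independent of each other.

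**Figure D2:**
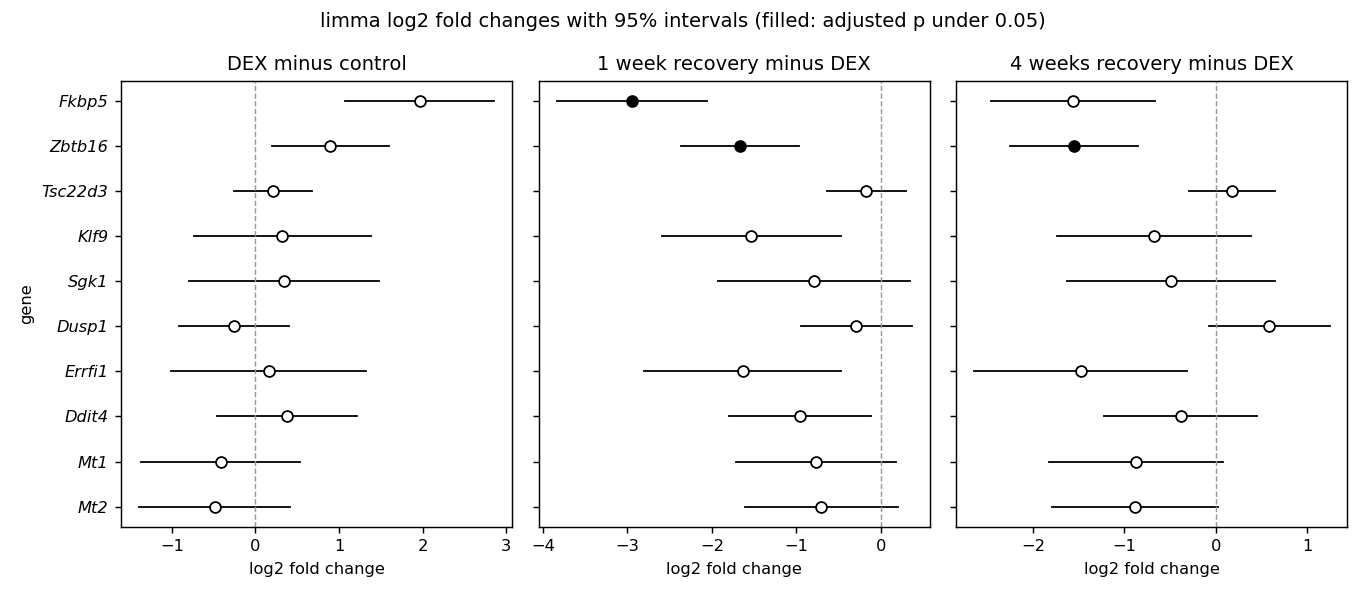
Fitted log2 fold changes of the 10 genes (x axis) with 95% intervals in 3 contrasts, from limma on all 12 libraries. Filled points passed an adjusted p under 0.05, which only Fkbp5 (−2.95) and Zbtb16 (−1.66) did in 1 week against DEX and only Zbtb16 (−1.55) in 4 weeks against DEX.

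Tsc22d3 and Klf9 encode transcriptional regulators. Tsc22d3, or GILZ, is a leucine zipper protein that restrains AP-1 and NF-kB. Its normalised counts were 89.4, 115 and 88.2 in control, 115, 99.3 and 122 in DEX, 85.5, 110 and 104 at 1 week, and 118, 143 and 118 at 4 weeks. Control, DEX and 1 week pools overlapped throughout, while the 4 week pools all lay above control and above 1 week. The log2 fold change of DEX over control was 0.21 ± 0.22, with a 95% interval of −0.26 to 0.67, that is 0.835-fold to 1.60-fold, which leaves out a change as large as that of Fkbp5 (adjusted p = 0.906 by limma). The log2 fold change at 4 weeks against control was 0.38 ± 0.22 (adjusted p = 0.838 by limma).

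Klf9 is a Krüppel-like zinc finger factor. It stood at 73.3, 105 and 178 normalised counts in control and 208, 120 and 107 in DEX, then 66.3, 17.1 and 96.7 at 1 week and 96.5, 71.7 and 95.01 at 4 weeks. The control pools spread across the DEX range, and both recovery groups lay wholly below DEX. The contrast of 1 week with DEX was −1.53 ± 0.50 on the log2 scale (adjusted p = 0.215 by limma). Without pool 2 of the 1 week group, which held the lowest Klf9 value of all 12 libraries, it was −0.79. Only edgeR's likelihood ratio test called this contrast (adjusted p = 0.0131).

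Sgk1 and Dusp1 act in kinase signalling. Sgk1, a kinase that protects the epithelial sodium channel from degradation, was 71.8, 82.8 and 45.3 in control and 121, 89.0 and 51.5 in DEX, in normalised counts. At 1 week it was 96.8, 32.6 and 33.9, and at 4 weeks 153, 42.4 and 30.9. Pool 1 was highest in DEX and both recovery groups, and no pair of groups separated. The log2 fold change of DEX over control was 0.34 ± 0.53 with a 95% interval of −0.79 to 1.48 (adjusted p = 0.934 by limma), wide enough to hold a 2.79-fold rise.

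One of the 6 annotated Sgk1 windows, chr10:21993640-21993939 on the plus strand of GRCm38.p6, is printed because it was the only window with the full palindrome among those of 9 genes, all but Zbtb16. The match, in capitals, starts 189 bases before the start site. The palindrome occurred in 3 of all 32851 windows (0.00913%). A single arm, which every palindrome also holds, occurred in 19.0% of all windows, and among these 9 genes only in windows of Sgk1 and Tsc22d3. A match of letters describes the window and was not tested for binding.
Sgk1: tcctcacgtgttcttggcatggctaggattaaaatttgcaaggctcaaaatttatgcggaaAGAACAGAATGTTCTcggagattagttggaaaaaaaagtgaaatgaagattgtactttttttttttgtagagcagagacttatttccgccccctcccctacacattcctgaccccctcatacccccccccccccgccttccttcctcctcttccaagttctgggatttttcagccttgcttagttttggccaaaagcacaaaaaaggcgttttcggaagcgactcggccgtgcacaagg

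Dusp1, the phosphatase that inactivates MAP kinases, was the most abundant of the genes in this pair. It held 861, 1072 and 851 normalised counts in control, 747, 922 and 666 in DEX, 880, 442 and 648 at 1 week, and 1264, 1074 and 1143 at 4 weeks. DEX overlapped control, with a mean on the lower side, and the 4 week pools lay above all pools of the other 3 groups. The log2 fold change of DEX over control was −0.26 ± 0.31 with a 95% interval of −0.92 to 0.40. The 4 week group exceeded 1 week by 0.87 ± 0.31 (adjusted p = 0.770 by limma), and control by 0.33 ± 0.31 (adjusted p = 0.907 by limma). The 1 week group includes pool 2, the lowest of all libraries in Dusp1 (442). Exons of Ergic1 on the opposite strand overlap Dusp1, and the library kit did not mark strand, so reads of the overlap cannot be told apart. Ergic1 stood at 0.239 to 0.434 of Dusp1 in 11 libraries and at 1.48 in pool 2 of the 1 week group.

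Errfi1 and Ddit4 restrain growth signalling. Errfi1 encodes MIG6, an inhibitor of the EGF receptor. Its normalised counts were 1712, 1015 and 480 in control and 1288, 805 and 1121 in DEX, against 645, 500 and 120 at 1 week and 510, 301 and 352 at 4 weeks. DEX fell inside the wide control range, and both recovery groups lay wholly below DEX while still overlapping control. Pool 1 was the highest of every group. The log2 fold change was 0.16 ± 0.55 in DEX against control, −1.64 ± 0.55 in 1 week against DEX (adjusted p = 0.237 by limma) and −1.48 ± 0.55 in 4 weeks against DEX (adjusted p = 0.316 by limma). Without pool 3 of the 1 week group, the lowest in Errfi1, the difference between 1 week and DEX was −0.89. edgeR's likelihood ratio test called both recovery groups against DEX (adjusted p = 0.0381 and 0.0180). Limma with array weights called the 4 week group against DEX (0.0176) and against control (0.0486).

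Ddit4, or REDD1, inhibits mTORC1 through the TSC complex. It was 6.61, 6.60 and 9.79 normalised counts in control, 7.29, 8.58 and 15.03 in DEX, 3.42, 8.41 and 4.34 at 1 week, and 7.02, 8.10 and 7.40 at 4 weeks. All group pairs overlapped. Its largest contrast was −0.96 ± 0.39 in 1 week against DEX (adjusted p = 0.373 by limma).

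Mt1 and Mt2 encode the metallothioneins, small proteins that bind zinc and copper and whose genes respond to metals through Mtf1 as well as to glucocorticoids. Mt1 held 4337, 4267 and 4398 normalised counts in control and 3698, 3182 and 2916 in DEX. It then held 3169, 1582 and 1382 at 1 week and 2917, 1162 and 1655 at 4 weeks. The control pools lay within 131 normalised counts of each other and above all 9 treated pools, and pool 1 of each recovery group overlapped the DEX range.

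Mt2 was 1025, 805 and 722 in control and 651, 587 and 564 in DEX, with 676, 299 and 247 at 1 week and 630, 179 and 304 at 4 weeks. As for Mt1, every treated pool lay below every control pool, and pool 1 was the highest of each recovery group. No contrast of either gene passed in the limma fit. For DEX against control the log2 fold changes were −0.42 ± 0.45 for Mt1 and −0.49 ± 0.43 for Mt2, with 95% intervals of −1.36 to 0.53 and −1.40 to 0.42, so that a rise as large as the 4.13-fold of Fkbp5 lay outside both intervals. At 4 weeks against control they were −1.29 ± 0.45 (adjusted p = 0.663 by limma) and −1.37 ± 0.43 (adjusted p = 0.598 by limma). Array weights alone called Mt2 at 4 weeks against control (adjusted p = 0.0362 by limma).

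The 2 metallothionein genes varied together. Their ratio, Mt1 over Mt2, stayed between 4.23 and 6.51 in the 12 libraries. The libraries fell on either side of a gap in Mt1 between 1655 and 2916, so no correlation is given over all 12. Within the 8 libraries above the gap, Pearson's r was 0.796 (exact permutation p = 0.00751, adjusted 0.0376 over 10 pairs of genes) and Spearman's rho was 0.810 (exact permutation p = 0.0218, adjusted 0.184). Without the 2 libraries farthest from the median of Mt1, r was 0.839 (n = 6). The 8 libraries hold all control pools, which lay above the treated pools in both genes. Because the permutation did not hold group fixed, r, rho and their p values include that group difference.

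**Figure D3:**
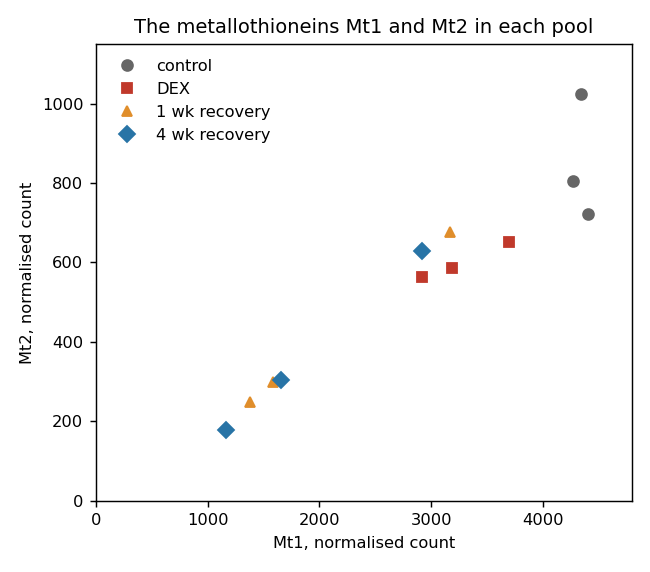
Normalised counts of Mt1 (x axis) and Mt2 (y axis), 1 point per pool and 1 symbol per group, both axes linear from 0. The control pools sit at the upper right, and 4 recovery pools with Mt1 at 1655 or less sit at the lower left.

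Mt2 shares exonic sequence with the antisense gene Gm45774, whose normalised counts were 0.657 to 0.895 of those of Mt2 in every library. Because strand was not marked, reads of the 2 genes cannot be told apart. Over the 12 libraries Gm45774 was also the gene most like Mt1 on the log2 scale (r = 0.972 among 15757 genes with a mean of at least 1). Hmox1, heme oxygenase (r = 0.938), and Ccdc85b (r = 0.930) came next. Hmox1 lay at 46.0 to 57.5 normalised counts in control and 15.2 to 33.7 at 4 weeks.

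The promoter windows of Mt1 (chr8:94178839-94179138) and Mt2 (chr8:94172368-94172667), both on the plus strand of GRCm38.p6 from RefSeq, are printed for the matches they share. Capitals mark core letters of the metal response element, TGCACNC or TGCGCNC on either strand. Mt1 holds 3 matches and Mt2 holds 4. At least 1 match occurred in 25.7% of all 32851 windows and 3 or more in 1.97%. The glucocorticoid palindrome and its arms were not in either window.
Mt1: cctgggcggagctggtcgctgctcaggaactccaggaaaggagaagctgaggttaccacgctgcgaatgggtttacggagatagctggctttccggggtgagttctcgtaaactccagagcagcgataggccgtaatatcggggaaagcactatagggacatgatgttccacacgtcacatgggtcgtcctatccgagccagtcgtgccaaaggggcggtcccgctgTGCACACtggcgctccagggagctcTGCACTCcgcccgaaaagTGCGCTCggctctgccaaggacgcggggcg
Mt2: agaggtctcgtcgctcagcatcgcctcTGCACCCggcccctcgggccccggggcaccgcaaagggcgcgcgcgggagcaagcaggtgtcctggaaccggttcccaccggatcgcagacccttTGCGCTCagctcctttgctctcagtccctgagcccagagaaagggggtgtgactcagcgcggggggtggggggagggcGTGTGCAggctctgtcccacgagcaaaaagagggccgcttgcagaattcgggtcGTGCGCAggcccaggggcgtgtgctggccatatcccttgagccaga

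Separation of all 3 pools of one group from all 3 of another gives the same 2-sided exact permutation p of 0.1, the smallest that 3 against 3 allows. In DEX against control it was seen upwards for Fkbp5 and Zbtb16 and downwards for Mt1 and Mt2, 4 of 10 genes, beside 12.8% of all genes tested. In 1 week against control Fkbp5, Zbtb16, Mt1 and Mt2 were lower, beside 6.08% separated in either direction and 2.61% lower. At 4 weeks against control Tsc22d3 and Dusp1 were higher and Mt1 and Mt2 lower (background 13.2%). Fkbp5, Zbtb16, Klf9 and Errfi1 were lower than DEX at 1 week (background 13.8% in either direction, 6.87% lower) and at 4 weeks, where Dusp1 was higher (background 19.5%). Between the recovery groups Fkbp5, Tsc22d3 and Dusp1 were higher at 4 weeks (background 8.92% in either direction, 5.19% higher).

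Whether other genes moved with Fkbp5 outside DEX was examined in the 9 libraries of the other groups, since the DEX pools form a cluster of their own. Dusp1 gave r = 0.890 (permutation adjusted p = 0.0347 over 10 pairs) and rho = 0.717 (permutation adjusted p = 0.184), and r = 0.681 without the 2 libraries farthest from the median of Fkbp5 (n = 7). Klf9 gave r = 0.845 (permutation adjusted p = 0.126) and 0.473 without those 2, so its relation rests on them. For the other 7 genes r lay between −0.05 and 0.26. The permutation did not hold group fixed. Fkbp5 and Dusp1 were both higher in every 4 week pool than in every 1 week pool, so the r of Dusp1 includes that group difference. Pool 2 of the 1 week group was the lowest of the 9 libraries in both genes. Over all 12 libraries the genes most like Fkbp5 were Arrdc2 (r = 0.968), Smarcd2 (0.949), Unc5a (0.948), Tcf7l1 (0.945) and Klf15 (0.934), a description that rests on the height of the DEX pools. Arrdc2, for instance, stood at 6.37 to 8.36 normalised counts in control and 18.6 to 37.2 in DEX.

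A wider list of 25 further genes known to be induced by glucocorticoids in other tissues was all tested, and 0 of 25 passed the F test. In DEX against control 20 of 25 had a log2 fold change above 0 with 0 called, a median of 0.31 against −0.02 over all genes. In 1 week against DEX 22 of 25 lay below 0 and 2 were called, both lower, with a median of −0.93 against 0.03. Every DEX pool exceeded every control pool for 3 of the 25 genes and lay below it for 1, 4 in all beside 12.8% of all genes separated in either direction. Every DEX pool exceeded every 1 week pool for 13 of the 25, beside 6.87% of all genes.

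The 2 called genes were the transcription factors Cebpd and Klf15. Cebpd held 458, 639 and 523 normalised counts in control, 849, 607 and 1825 in DEX, 347, 88.5 and 187 at 1 week, and 273, 323 and 386 at 4 weeks. DEX pool 3 was by far the highest and 1 week pool 2 the lowest, and the fall from DEX to 1 week was −2.45 ± 0.45 on the log2 scale (adjusted p = 0.0215 by limma). Klf15 held 15.5, 23.6 and 26.3 in control, 50.8, 35.9 and 65.8 in DEX, 20.9, 3.70 and 11.7 at 1 week, and 25.9, 21.5 and 29.2 at 4 weeks. Its DEX pools lay above all others, and it fell by 2.34 ± 0.47 on the log2 scale from DEX to 1 week (adjusted p = 0.0378 by limma).

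Both calls were lost when some single pools were left out. Over all genes, limma calls in 1 week against DEX fell from 107 to 80 without pool 2 of the 1 week group. They fell to 27 and 7 without DEX pool 1 or 3. Without pool 2 of the 1 week group the log2 fold changes were −1.94 for Cebpd (adjusted p = 0.0629 by limma) and −1.65 for Klf15 (0.0562). Limma's adjusted p for Cebpd was 0.102 and 0.139 without DEX pool 1 or 3. For Klf15 it was 0.180, 0.0504 and 0.195 without DEX pool 1, 2 or 3, 0.0643 without control pool 2, and 0.0620, 0.0612 and 0.0623 without 4 week pool 1, 2 or 3.

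The next 4 of that list by the F test did not pass. Fam107a, an actin-associated stress gene, had the largest DEX difference of the 25, at 2.44, 0.471 and 1.96 normalised counts in control and 9.36, 6.54 and 17.9 in DEX (log2 fold change 2.86 ± 0.57, adjusted p = 0.0711 by limma). Sesn1, a stress-induced inhibitor of mTORC1, showed 1.30 ± 0.42 in the same contrast (adjusted p = 0.428 by limma). The cell cycle inhibitor Cdkn1a differed by −1.31 ± 0.33 and the mRNA decay factor Zfp36l2 by −1.81 ± 0.48 in 1 week against DEX, with adjusted p values of 0.0965 and 0.109 by limma. Without 1 week pool 2 the difference of Zfp36l2 was −1.16.

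**Figure D4:**
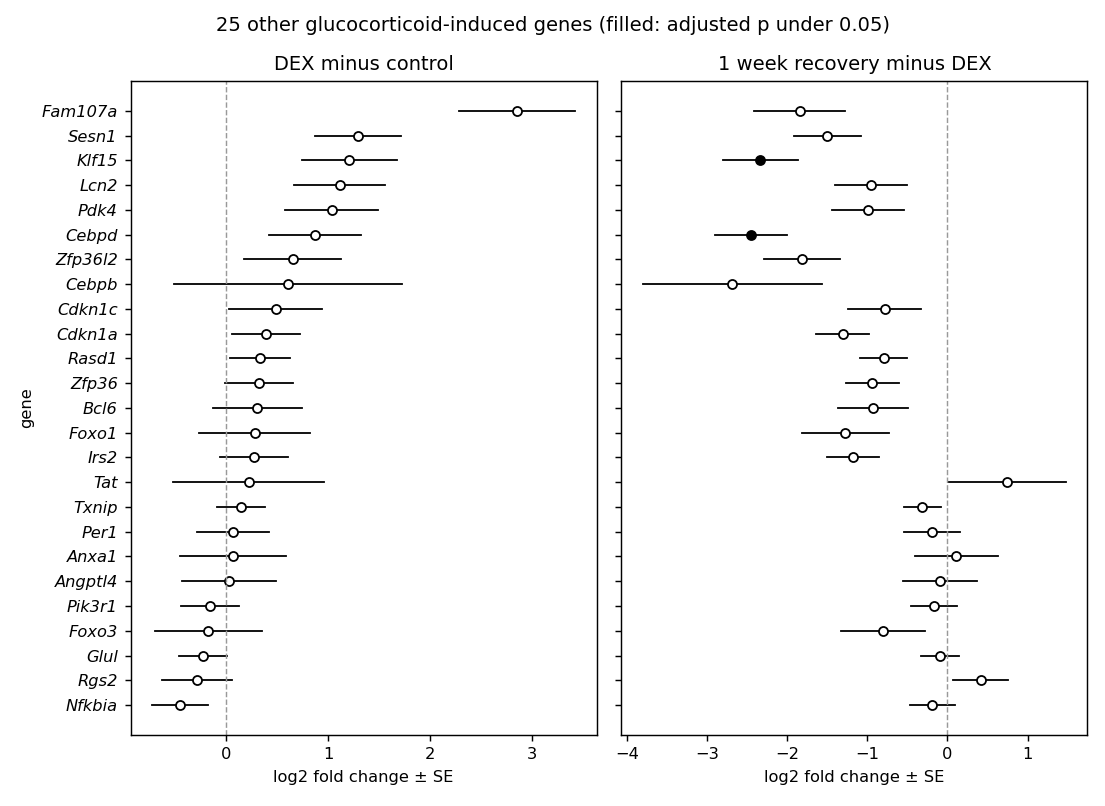
Fitted log2 fold changes with SE (x axis) of 25 further glucocorticoid-induced genes, ordered by DEX against control, in DEX against control and in 1 week against DEX. Filled points passed an adjusted p under 0.05 in limma, which Cebpd (−2.45) and Klf15 (−2.34) did in 1 week against DEX and none did in DEX against control.

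Of 15 close paralogues of the 10 genes, 14 were tested and 1 was called. Mt3, the brain metallothionein, was 29.1, 17.7 and 38.6 normalised counts in control, 11.02, 15.4 and 15.4 in DEX, 38.0, 74.3 and 42.9 at 1 week, and 27.1, 23.9 and 37.0 at 4 weeks. Its DEX pools were the lowest of the study, and it rose by 1.84 ± 0.33 on the log2 scale from DEX to 1 week (adjusted p = 0.0212 by limma), the direction opposite to the values of Mt1 and Mt2. That call was lost without pool 2 of the 1 week group (log2 fold change 1.55, adjusted p = 0.0665 by limma) and without DEX pool 1 (0.147) or 3 (0.0839). Dusp5, Dusp6, Sgk3 and Dusp2 followed by the F test and did not pass. Dusp5, an ERK phosphatase, differed by −2.64 ± 0.59 in 1 week against DEX (adjusted p = 0.0632 by limma) and by −1.76 without 1 week pool 2, and Sgk3 by −2.33 in 4 weeks against DEX (adjusted p = 0.0597 by limma).

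The list of 16 partners holds the receptors, Hsp90 chaperones, kinases and regulators on which the 10 genes act or depend. In the limma fit of all 12 libraries, 0 of 16 passed the F test or a contrast. The glucocorticoid receptor gene Nr3c1 held 99.1 to 165 normalised counts in control, 104 to 110 in DEX, 84.6 to 167 at 1 week and 82.9 to 89.1 at 4 weeks. The mineralocorticoid receptor gene Nr3c2 ranged from 17.7 to 31.1 over all libraries. For neither gene did the DEX pools separate from control. The 4 week pools of Nr3c1 lay below all control and all DEX pools. In these contrasts 13.2% and 19.5% of all genes separated in either direction. The smallest F test p values of the list were those of Mapk14, Mtor, Deptor and Erbb2, with adjusted p values of 0.454 to 0.728 by limma. Of 12 immediate early and dissociation stress genes 0 passed either, and their summed normalised counts were 21112 to 23609 in control, 20928 to 30183 in DEX, 14990 to 18696 at 1 week and 16389 to 16676 at 4 weeks.

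Markers of other cells also differed between the groups in which the 10 genes differed. Summed over 6 endothelial markers, normalised counts were 6.69 to 66.9 in control, 2.98 to 7.85 in DEX, 26.2 to 168 at 1 week and 76.2 to 146 at 4 weeks, and limma called 5 of 6 in 4 weeks against DEX, all higher. The 5 pericyte and fibroblast markers summed to 4.17 to 27.0, 0.897 to 8.18, 11.3 to 33.4 and 42.7 to 63.3 in the same order, and the 6 macrophage markers to 20.6 to 23.8, 15.3 to 19.96, 30.3 to 54.7 and 21.3 to 51.1. The 6 corticotroph markers summed to 35294 to 75533 in control, 5558 to 9417 in DEX, 43869 to 286223 at 1 week and 48721 to 80895 at 4 weeks. Pomc made up 68.1% to 90.5% of that sum in DEX and 97.9% to 99.5% in the other groups, so the sum mostly follows Pomc. In DEX against control 3 of the 6 markers had a log2 fold change above 0 and 3 below, with 0 called by limma. The melanotroph marker Pax7 and the gonadotroph marker Lhb were at or near 0 in every library, and the lactotroph marker Agtr1b was at 0 in all 12.

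Lineages of the pituitary differed as well. The 2 thyrotroph markers summed to 123 to 277 in control, 43.9 to 258 in DEX, 133 to 306 at 1 week and 452 to 711 at 4 weeks. Tshb, a thyrotropin subunit, was called higher in 4 weeks against DEX (log2 fold change 2.59 ± 0.52, adjusted p = 0.0290 by limma), a call lost without DEX pool 1 or 3 or any of the 4 week pools (adjusted p = 0.0962 to 0.146). The 4 stem and folliculostellate markers summed to 60.9 to 99.7, 58.6 to 71.0, 60.3 to 77.8 and 113 to 148 in the same order, and the 3 somatotroph markers to 79121 to 221563, 67894 to 104436, 92074 to 221152 and 150647 to 266215. Neither of these 2 lists had a called gene, although the 4 week sums of all 3 lineages lay above the DEX sums without overlap. The part of these marker shifts in the values of the 10 genes was not tested.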

How the data were processed

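The deposited table holds 12 libraries of SMART-V4 and Nextera XT cDNA, a preparation that does not mark strand. Per the labels and the study's methods, the authors trimmed reads with Trim Galore 0.6.5, aligned them to GRCm38 (Ensembl release 98) with STAR 2.7.1a, counted them with featureCounts 2.0.0 (mapping quality 20, reverse stranded) and normalised them in edgeR. The deposited values are a normalised signal, CPM on an effective (TMM) library size, so columns sum to 823964 to 1423897. Dividing by the value of 1 read gave whole reads for 100% of 271881 values above 0 (tolerance 1e-06). The plan had assumed plain CPM, and the same test was kept.

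Genes above 0.1 in at least 3 libraries were fitted with limma 3.58.1 (R 4.3.3) on log2(value + 0.1), which understates changes of low genes, with all 12 libraries, trended moderation and Benjamini-Hochberg adjustment over 24736 genes. Calls used an adjusted p of 0.05. On the recovered reads, edgeR 4.0.16 (quasi-likelihood, and likelihood ratio with trended dispersion) and DESeq2 1.42.0 were alternatives. The quasi-likelihood test called 165 genes over the 4 groups and limma 78. Other alternatives were pseudocounts of 0.5 and 1, no filter, a filter of 1, median ratio or quantile scaling, robust moderation, array weights, a fit of the 2 groups alone, a replicate block and leaving out each pool. Replicates are separate pools, numbered in the labels. The limma, edgeR and DESeq2 fits of DEX against control were tested on simulated data. The simulation gave every gene the same dispersion, so it does not show how the fits perform at the spread of these pools. Sequences came from RefSeq promoter windows on GRCm38.p6, which matched 9 of the 10 genes (17 windows). Gene positions and exon lengths came from GRCm38 annotation.

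All 10 genes are described. From every other list, genes past a test and up to 4 more by F test p were named where a result turned on them, with 5 genes most like Fkbp5 and 3 most like Mt1. Members and lists were chosen with earlier results of these data known. The correlation of Mt1 with Mt2 planned over 12 libraries was restricted to 8 because the values fell into clusters, a choice made after seeing the data. Those of Fkbp5 with the other members, also planned over 12 libraries, were restricted to the 9 outside DEX. Both departed from the plan.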

Additional observations from a re-analysis of the deposited data

Results flagged for a closer look

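3 differences between treated groups passed the limma test of the contrast itself. Fkbp5 differed between 1 week of recovery and DEX by −2.95 on the log2 scale. Zbtb16 differed between 1 week and DEX by −1.66, and between 4 weeks and DEX by −1.55. Each was tested as a contrast between the 2 groups in the limma fit of all 12 libraries, with adjusted p values of 0.00581, 0.0372 and 0.0401. All 3 pools of the recovery group lay below all 3 DEX pools in each case. They also did for Fkbp5 at 4 weeks and for Klf9 and Errfi1 at both times. Those further contrasts with DEX did not pass in the limma fit, although alternatives called some of them.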

How the results depend on the processing

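Of 1740 values of the 10 genes recomputed under alternatives, 1659 kept their direction and their side of the threshold, 24 newly passed, 23 no longer passed and 34 turned direction. The last group covers 10 differences, with a lowest adjusted p of 0.554 (limma, edgeR or DESeq2). The cause of these shifts was not tested.

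The limma fit called 1 of the 10 genes over the 4 groups, 2 in 1 week against DEX, 1 in 4 weeks against DEX and 0 in DEX against control. With array weights these counts were 4, 2, 3 and 1, with 2 more in 4 weeks against control. The likelihood ratio test of edgeR gave 4, 4, 3 and 1, DESeq2 2, 2, 2 and 1, and edgeR's quasi-likelihood test 2 over the 4 groups. Quantile scaling called 1 in 1 week against DEX. A fit of the 2 groups alone called 0 in each contrast with DEX, with 6 libraries in place of 12. Leaving out each pool gave 0 to 1 over the 4 groups, 0 to 2 in 1 week against DEX, 0 to 2 in 4 weeks against DEX and 0 to 1 in DEX against control.

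Log2 fold changes that turned direction were, with array weights, −0.20 for Tsc22d3 and 0.047 for Sgk1 in 1 week against control, 0.15 for Ddit4 in 4 weeks against control, −0.12 for Errfi1 in DEX against control, and −0.64 for Sgk1 and −0.57 for Errfi1 between the recovery groups. Quantile scaling gave −0.036 for Tsc22d3 in 1 week against control, and −0.0060 for Zbtb16 and 0.068 for Mt1 between the recovery groups. Both edgeR tests gave 0.18 for Sgk1 in 4 weeks against control and −0.12 for Errfi1 between the recovery groups, where DESeq2 gave 0.17 and −0.12, with −0.014 for Errfi1 in DEX against control. Leaving out each pool gave −0.04 to 0.16 for Tsc22d3 in 1 week against control, −0.84 to 0.32 for Sgk1 and −0.10 to 0.18 for Ddit4 in 4 weeks against control, and −0.33 to 0.59 for Errfi1 in DEX against control. Between the recovery groups it gave −0.39 to 0.81 for Sgk1, −0.16 to 0.28 for Zbtb16, −0.46 to 0.27 for Mt1, −0.66 to 0.26 for Mt2 and −0.59 to 0.63 for Errfi1.

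Over all genes, limma called 78 over the 4 groups, edgeR's quasi-likelihood test 165, its likelihood ratio test 1028 and DESeq2 734. In DEX against control these counts were 30, 45, 271 and 190, and in 1 week against DEX 107, 145, 701 and 573. In 4 weeks against DEX they were 216, 214, 664 and 655. Limma called 0 in the other 3 contrasts, the likelihood ratio test 50, 94 and 165 and DESeq2 8, 60 and 15 (1 week against control, 4 weeks against control, 4 weeks against 1 week). Array weights called 1069 over the 4 groups, 166 in DEX against control, 566 in 1 week and 1300 in 4 weeks against DEX, and 4, 186 and 8 in the other 3 contrasts. A fit of the 2 groups alone called 1, 0 and 21 in the contrasts with DEX. Pseudocounts of 0.5 and 1 called 49 and 54 in DEX against control and 2 and 3 in 1 week against control, where robust moderation called 1. Leaving out each pool gave 7 to 186 over the 4 groups, 2 to 66 in DEX against control, 7 to 201 in 1 week and 19 to 402 in 4 weeks against DEX. With the pool number as a replicate block, 2 of the 10 genes passed over the 4 groups, with Zbtb16 added. The deviations of same-numbered pools correlated at −0.294 to 0.397 over 18 pairs, 7 of them above 0.1, and 8 of 12 libraries correlated best with their own number, a hint of pairing in the data that the labels do not give. The 3 pairs of control with 1 week were all above 0.1 (0.136 to 0.397), and that contrast had 0 of the 10 genes called by limma with and without the block. In no other pair of groups were all 3 above 0.1, so the pools were not treated as paired.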
